A study of Mus musculus with 4 samples.

Results

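The cells described are mouse embryonic stem cells (mESCs) with a high share of S-phase transcripts, 257 of 1861 mESC barcodes that passed the filter (13.8%). Across the 3 cell lines of the experiment, 5706 barcodes passed. A barcode passed with at least 2000 UMIs (unique molecular identifiers, which count captured RNA molecules) and at most 20% of its UMIs from mitochondrial genes. The S score of a cell was the share of its UMIs in 14 genes, which were Mcm2, Mcm4, Mcm5, Mcm6, Pcna, Tyms, Rrm1, Rrm2, Gins2, Dtl, Hells, Uhrf1, Clspn, and Pola1. The highest 15% of cells by this score held 279 cells. Of these, 22 were also among the highest 15% by the share of Top2a, Mki67, Cenpf, Tpx2, Nusap1, and Kif11, genes of G2 and mitosis, and were left out. The remaining 257 cells are called S-high, and they were compared with the 930 cells that made up the lowest 50% by S score. Another 652 cells lay between these groups.

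In S phase a cell copies its DNA. Origins of replication are licensed in G1, when the MCM helicase is loaded, and fire in S phase, when the helicase is activated and polymerases, the clamp PCNA, nucleotide synthesis, and new histones are needed. In most somatic cells the genes for this machinery are switched on at the G1/S boundary by E2F transcription factors after the retinoblastoma protein is inactivated by cyclin and CDK complexes. Mouse embryonic stem cells are known for a short G1 phase and for weak control at this boundary, so that much of an asynchronous culture is in S phase.

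The mESCs were of the E14TG2a line, and the other lines were Neuro-2a (N2a), a mouse neuroblastoma line, and NIH/3T3, a mouse fibroblast line. The mESCs were grown on 0.15% gelatin with 15% fetal bovine serum, leukemia inhibitory factor at 1000 U/mL, the GSK3 inhibitor CHIR99021 at 3 µM, and the MEK inhibitor PD0325901 at 1 µM, and both other lines with 10% serum. The RNA was measured by CapSeq, a split-pool single-cell method in which the first barcode (BC1) marks the line. Each line was 1 culture without replicates, the 3 lines shared 1 pooled library that was split by BC1, and there was no synchronization or DNA stain, so no test was made, no p-value is given, and S-high is a range of a score and not a measured cell cycle phase.

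All 14 genes of the S score were detected in the mESCs, and so were the 3 genes that mark the group, Mcm5, Pcna, and Hells. The cells were chosen by the values of these genes, which are therefore a description only. Levels are CPM, the UMIs of a gene as a proportion of the UMIs summed over the cells of a group, per 1000000 UMIs. The sums were 1453811 UMIs in S-high cells, 4604759 in the cells between, and 5727200 in the lowest 50%. The level of Mcm5 (ENSMUSG00000005410, GRCm39 chromosome 8, 75836140 to 75856231, plus strand), a subunit of the MCM helicase, was 361 CPM in S-high cells, 272 CPM between, and 192 CPM in the lowest 50%. That of Pcna (ENSMUSG00000027342, chromosome 2, 132091082 to 132095234, minus strand), the sliding clamp, was 451 CPM, 370 CPM, and 259 CPM in the same order. Hells (ENSMUSG00000025001, chromosome 19, 38919359 to 38960047, plus strand), a chromatin remodeler needed for DNA methylation, was at 1191 CPM, 866 CPM, and 602 CPM. Hells gave 19.6% of the S score UMIs of all filtered mESCs. Over the 14 genes, the ratio of S-high cells to the lowest 50% ran from 1.53 for Tyms to 2.44 for Gins2, and the summed ratio was 1.95. The 14 genes were thus not absent from the low cells, and the groups differed in degree.

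The threshold divided a continuous score. The last cell inside held 16 S score UMIs of 3050 (0.525%), and the first cell outside held 47 of 8971 (0.524%). Within 0.05 percentage points of the threshold lay 122 of the 279 cells on the inside and 207 cells on the outside. The median S score was 0.587% in S-high cells, 0.451% between, and 0.310% in the lowest 50%, which corresponded to medians of 29, 27, and 15 UMIs per cell. Such small counts limited how well a single cell could be placed. After each cell was thinned to 2000 UMIs, the coefficient of variation of S score UMIs over the mESCs was 0.426, of which counting alone would give 0.357. When the scores were taken from the thinned counts, 256 cells were chosen, and 141 of them were also among the 257 (55.1% of the first group and 54.9% of the second).

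**Figure D1:**
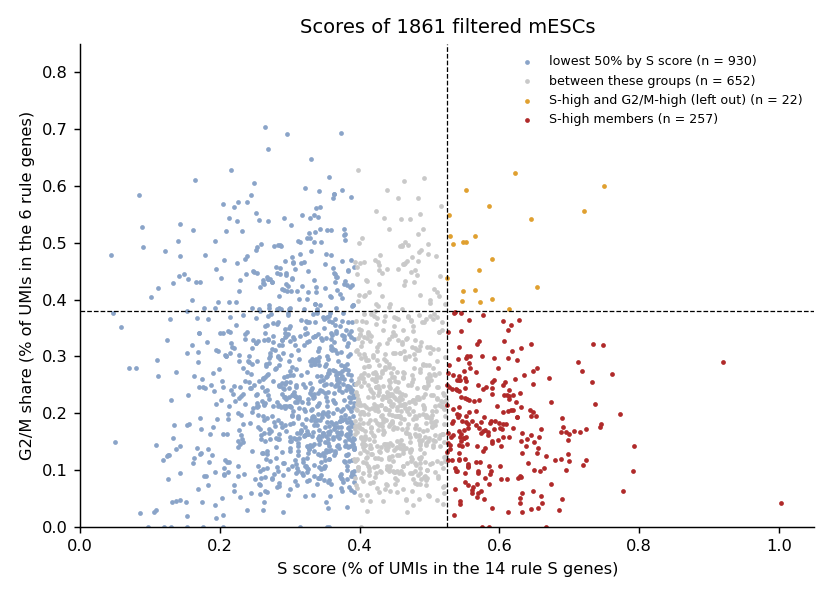
Each point is 1 of 1861 filtered mESCs, with its S score on the x axis and its share of UMIs in the 6 G2/M genes on the y axis, both in percent, and dashed lines at the last cell inside each highest 15%. The S-high cells (n = 257) join the cells between (n = 652) and the lowest 50% (n = 930) without a gap, and 22 cells lie past both lines.

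S-high cells were not deeper than the others. Their median was 4667 UMIs, against 6064 between and 5061 in the lowest 50%. At 2000 UMIs per cell, a median of 1412 genes was detected in S-high cells and 1414 in the lowest 50%. The median mitochondrial share was 1.94% and 2.15%, and the median share of ribosomal protein genes 8.36% and 8.17%, in the same order.

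The promoters of the genes give the sequence side of this group. An E2F-type motif was searched as TTTGGCGC, TTTCGCGC, or TTTCCCGC on both strands in the 250 bases before the start of the canonical transcript (GENCODE M39, GRCm39). These letters were found in 491 of 32940 promoters (1.49%) and in 159 of 4427 genes with at least 50 CPM in mESCs (3.59%). They were found in 4 of the 14 S score genes (28.6%), in 17 of 154 other replication-related genes (11.04%), in 1 of 38 other G2/M genes (2.63%), and in 0 of 24 pluripotency genes. Within the 154 genes the matches lay mostly among G1/S regulators (6 of 23), cohesion genes (3 of 12), and chromatin assembly genes (3 of 15), while they were found in 1 of 13 origin licensing genes, 0 of 12 helicase and fork genes, and 0 of 21 polymerase genes. A match is a description of the letters and not a binding site. Below are the 4 S score genes with a match, of which Mcm4, Mcm5, and Mcm6 encode helicase subunits and Pola1 the catalytic subunit of polymerase alpha, shown 5′ to 3′ on the strand of the gene with the motif in capitals. Overlapping matches in Mcm5 and Mcm6 run together. The annotated Mcm6 gene begins at 128287516, before the start of its canonical transcript. The later of its marked stretches therefore lies inside the annotated gene.
Mcm5 (chr8:75835928-75836051, plus strand): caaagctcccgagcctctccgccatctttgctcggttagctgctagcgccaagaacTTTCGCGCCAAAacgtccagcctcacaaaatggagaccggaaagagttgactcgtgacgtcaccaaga
Mcm6 (chr1:128287453-128287608, minus strand): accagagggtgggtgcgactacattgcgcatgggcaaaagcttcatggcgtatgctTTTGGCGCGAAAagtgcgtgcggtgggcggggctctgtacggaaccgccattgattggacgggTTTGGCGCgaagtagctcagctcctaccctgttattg
Mcm4 (chr16:15455425-15455514, minus strand): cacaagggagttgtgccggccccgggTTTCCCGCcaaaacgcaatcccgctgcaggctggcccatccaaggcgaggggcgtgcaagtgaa
Pola1 (chrX:92675836-92675955, minus strand): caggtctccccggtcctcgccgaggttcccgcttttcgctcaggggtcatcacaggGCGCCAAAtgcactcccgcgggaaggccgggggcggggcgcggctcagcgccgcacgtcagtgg

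Outside the S score, the 4 matching genes with the highest ratios among the replication-related lists were E2f7, a repressor of the E2F family, Atad2, a chromatin-bound ATPase, Orc3, a subunit of the origin recognition complex, and Dscc1, a subunit of the clamp loader that acts in cohesion. Their ratios of S-high cells to the lowest 50% were 1.52 for E2f7 (95% interval 1.17 to 1.95), 1.43 for Atad2 (1.30 to 1.57), 1.40 for Orc3 (1.15 to 1.69), and 1.36 for Dscc1 (0.928 to 1.95). The interval of Dscc1 contained 1.
E2f7 (chr10:110581056-110581165, plus strand): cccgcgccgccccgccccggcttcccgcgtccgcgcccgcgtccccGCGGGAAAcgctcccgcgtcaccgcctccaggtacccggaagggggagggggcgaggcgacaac
Atad2 (chr15:57998686-57998753, minus strand): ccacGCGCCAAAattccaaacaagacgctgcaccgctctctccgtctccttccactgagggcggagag
Orc3 (chr4:34614948-34615039, minus strand): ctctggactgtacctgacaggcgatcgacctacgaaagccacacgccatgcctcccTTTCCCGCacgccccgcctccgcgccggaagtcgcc
Dscc1 (chr15:54954066-54954142, minus strand): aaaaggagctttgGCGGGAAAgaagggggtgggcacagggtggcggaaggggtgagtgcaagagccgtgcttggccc

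Replication genes that the score did not use were also higher in S-high cells, in most cases by less than 1.5-fold. The ratio of 1.95 of the 14 score genes is no measure for them, since the cells were chosen on those counts, and when the cells were chosen by 46 replication genes outside the score the 14 genes had a ratio of 1.23. The question was how much of the S-phase program moved with the score in mESCs. In 9 lists with 154 genes in all, 135 genes had at least 20 CPM. Of these, 116 had a higher level in S-high cells, against a background of 53.2% of 7265 genes. At least 1.5-fold higher were 7 of them (background 1.34%), which were Cdc6, Wdhd1, Chaf1b, Fanca, Ung, Ccne2, and E2f7, and at least 1.5-fold lower were 0 (background 3.29%). The median ratio of the 135 genes was 1.18, and that of all 7265 genes 1.01. Intervals of ratios are exact conditional binomial intervals at 95%, and they cover counting error only.

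The 13 origin licensing genes all had a ratio above 1 in S-high cells (background 53.2%), from 1.00 for Orc4 to 1.67 for Cdc6, and the summed ratio was 1.24 (1.20 to 1.29). Cdc6 (ENSMUSG00000017499, chromosome 11, 98798507 to 98814766, plus strand), which loads the MCM helicase onto origins, was at 118 CPM in S-high cells, 89.7 CPM between, and 70.7 CPM in the lowest 50%, a ratio of 1.67 (1.39 to 2.00). Mcm3 and Mcm7, the MCM subunits outside the score, had ratios of 1.23 (1.12 to 1.36) and 1.35 (1.20 to 1.51). Cdt1, the loading factor that is degraded in S phase, had a ratio of 1.22 (1.03 to 1.44), and Orc4, a subunit of the origin recognition complex, 1.00 (0.824 to 1.22).

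The genes of helicase activation and the fork were mixed. Of 11 genes with at least 20 CPM, 8 were higher (background 53.2%), and the summed ratio was 1.00 (0.951 to 1.06), with an interval that contained 1. Wdhd1, which links the helicase to polymerase alpha, was at 94.2 CPM in S-high cells and 57.1 CPM in the lowest 50%, a ratio of 1.65 (1.34 to 2.02), and Cdc45, a part of the active helicase, had a ratio of 1.34 (1.03 to 1.73). Ticrr, a factor of origin firing, went the other way, with 246 CPM in S-high cells and 327 CPM in the lowest 50%, a ratio of 0.752 (0.670 to 0.843). Dbf4, the activating subunit of the CDC7 kinase, was lower as well, at a ratio of 0.788 (0.685 to 0.903). Ticrr alone gave 25.8% of the UMIs of this list in all filtered mESCs.

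Polymerase, clamp loader, and lagging strand genes were higher in 18 of 21 cases (background 53.2%), with a summed ratio of 1.17 (1.12 to 1.21). Pole2, a subunit of polymerase epsilon, had the highest ratio, 1.50 (1.17 to 1.91), and Pold1, the catalytic subunit of polymerase delta, the lowest, 0.748 (0.540 to 1.02), with an interval that contained 1. Nucleotide supply was higher in 13 of 15 genes (background 53.2%), with a summed ratio of 1.16 (1.12 to 1.21). The ratios of Tk1 and Dut, enzymes of thymidine nucleotide supply, were 1.33 and 1.32, while that of Rrm2b, a ribonucleotide reductase subunit that p53 induces, was 0.847 (0.713 to 1.00).

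Chromatin assembly genes were higher in 15 of 15 cases (background 53.2%), with a summed ratio of 1.22 (1.19 to 1.26). Chaf1b (ENSMUSG00000022945, chromosome 16, 93680768 to 93703003, plus strand), a subunit of the CAF-1 histone chaperone, was at 85.3 CPM in S-high cells, 59.7 CPM between, and 47.3 CPM in the lowest 50%, a ratio of 1.80 (1.45 to 2.24). Nasp, a chaperone of linker and core histones, was at 1187 CPM and 860 CPM in S-high and low cells, a ratio of 1.38 (1.31 to 1.46). Dnmt1, which keeps DNA methylation through replication, had a ratio of 1.08 (0.957 to 1.22), whereas its partner Uhrf1 was part of the score. Of the replication-dependent histone genes, 7 of 19 had at least 20 CPM, and 7 of those were higher (background 53.2%), with a summed ratio of 1.24 over all 19 (1.17 to 1.32). Their level was 1010 CPM in S-high cells, 813 CPM in the lowest 50%, and 400.1 CPM in the 257 cells that were G2/M-high and not S-high. The histone values are uncertain, since the genes are near-identical copies and their main transcripts lack a poly(A) tail.

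Among checkpoint and repair genes, 18 of 22 were higher (background 53.2%), with a summed ratio of 1.15 (1.11 to 1.18). Fanca (ENSMUSG00000032815, chromosome 8, 123993038 to 124045331, minus strand), of the Fanconi anemia core complex, was at 99.05 CPM, 64.5 CPM, and 55.9 CPM in S-high cells, between, and in the lowest 50%, a ratio of 1.77 (1.45 to 2.16). Ung, which removes uracil from DNA and was named after its value was seen, had a ratio of 1.68 (1.39 to 2.02), and Brca1 1.45 (1.28 to 1.65). Cohesion genes were higher in 8 of 12 cases (background 53.2%), and their summed ratio was 1.02 (0.987 to 1.06), with an interval that contained 1.

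Of the regulators of the G1/S boundary, 16 of 19 were higher (background 53.2%), with a summed ratio of 1.16 (1.11 to 1.21). Ccne2 (ENSMUSG00000028212, chromosome 4, 11190303 to 11204947, plus strand), which encodes cyclin E2, was at 52.3 CPM in S-high cells, 32.8 CPM between, and 28.3 CPM in the lowest 50%, a ratio of 1.85 (1.39 to 2.44). Ccne1, which encodes cyclin E1, was at 152 CPM, 135 CPM, and 111 CPM, a ratio of 1.38 (1.17 to 1.61). Ccnd1, which encodes cyclin D1, had a ratio of 1.47 (1.16 to 1.85). E2f1, an activator of the family, had a ratio of 1.05 (0.749 to 1.44), and Cdkn1b, the CDK inhibitor p27, 0.814 (0.601 to 1.09), both with intervals that contained 1.

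**Figure D2:**
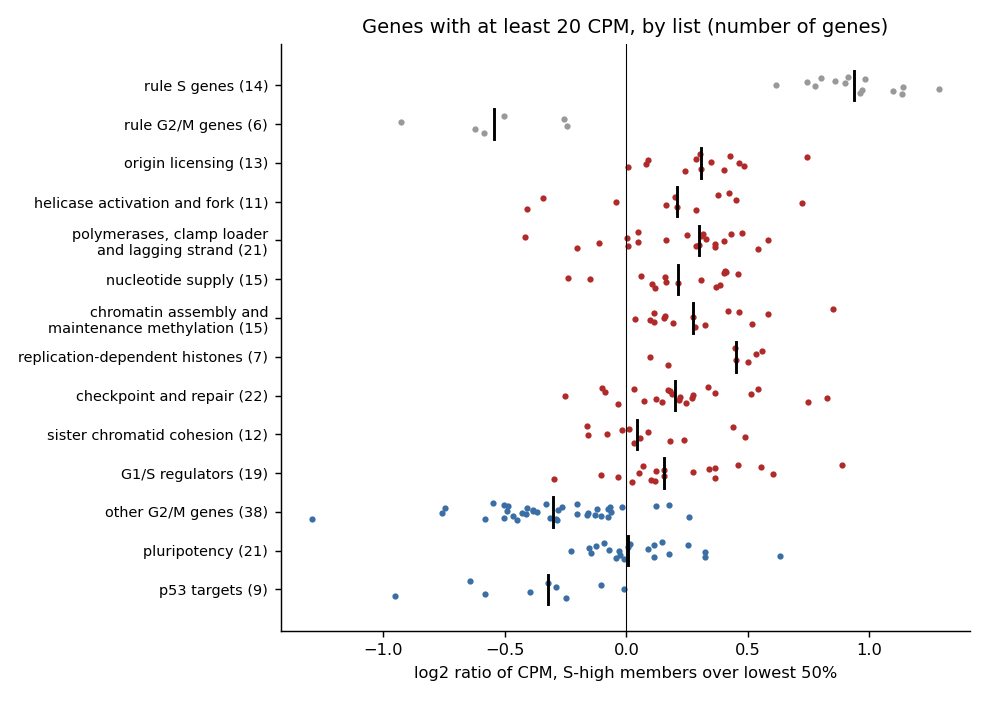
Each point is 1 gene with at least 20 CPM in the mESCs, placed by the log2 ratio of its CPM in S-high cells over the lowest 50% (x axis) within its list (y axis), with a bar at the list's median. Gray points are the genes that chose the cells, all 13 origin licensing genes and 15 chromatin genes lie above 0, and the 9 p53 targets lie below it.

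**Figure D3:**
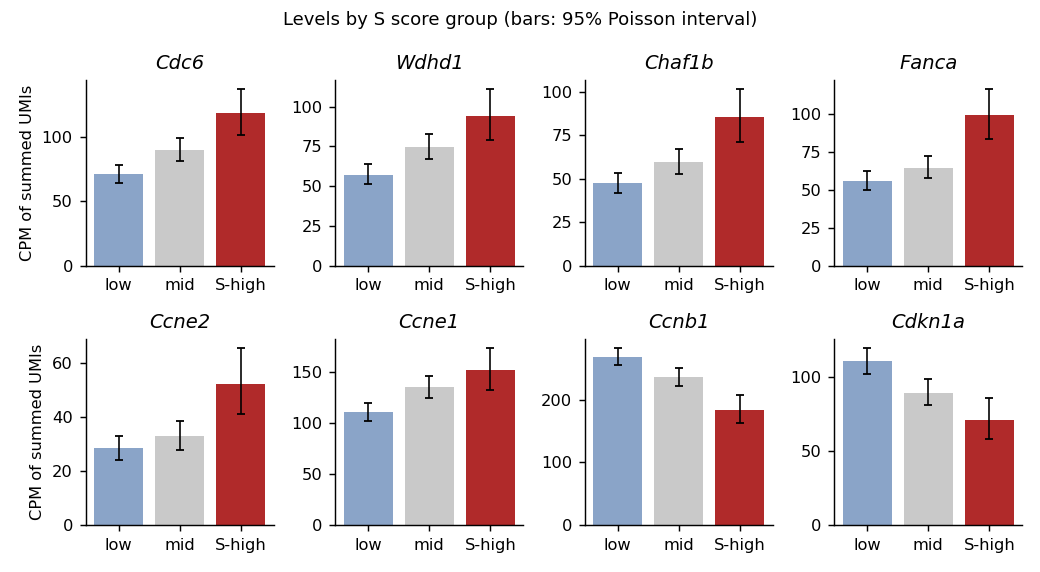
Bars are CPM of summed UMIs in the lowest 50% (low), the cells between (mid), and S-high cells, with 95% exact Poisson intervals that cover counting error only. The levels of Cdc6, Wdhd1, Chaf1b, Fanca, Ccne2, and Ccne1 increase in this order, and those of Ccnb1 and Cdkn1a decrease.

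G2/M genes that the rule did not use were lower in S-high cells in 35 of 38 cases (background 46.8%), with a summed ratio of 0.800 (0.782 to 0.818). The rule removed G2/M-high cells from one side of this comparison only. When they were removed from the low cells too, the ratio was 0.883 (0.863 to 0.904). Ccnb1 (ENSMUSG00000041431, chromosome 13, 100915153 to 100923116, minus strand), which encodes cyclin B1, was at 184 CPM in S-high cells, 235 CPM between, and 269 CPM in the lowest 50%, a ratio of 0.683 (0.598 to 0.779). The lowest ratio was that of G2e3, a ubiquitin ligase, at 0.408 (0.288 to 0.563). Cenpe and Prc1, a kinetochore motor and a spindle protein that were named after their values were seen, had ratios of 0.595 and 0.591. Ccnb2 and Cdc20, also genes of mitosis, had ratios of 1.13 (0.968 to 1.32) and 1.09 (0.924 to 1.28), and the highest ratio of the list was 1.20 for Ncapd2, a condensin subunit (0.997 to 1.43), so that the group was not uniform.

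S-high cells carried the stem cell markers at a summed level close to that of the lowest 50%. The 24 pluripotency genes summed to 9763 CPM in S-high cells and 9691 CPM in the lowest 50%, a ratio of 1.01 (0.989 to 1.03). Of 21 genes with at least 20 CPM, 11 were higher (background 53.2%). Without the 5% of cells with the most UMIs the summed ratio was 1.02, with an interval (1.001 to 1.04) that did not contain 1. In N2a and NIH/3T3 cells the same 24 genes summed to 248 CPM and 217 CPM. Zfp42 (Rex1), a marker of naive pluripotency, had a ratio of 1.11 (1.05 to 1.16), Dppa5a 0.938 (0.898 to 0.979), and Esrrb 1.01 (0.915 to 1.11). Utf1, a chromatin factor of stem cells, stood apart with 72.9 CPM and 47.0 CPM, a ratio of 1.55 (1.23 to 1.95). In the list of primed and early lineage genes, Dnmt3b, a de novo DNA methyltransferase, had a ratio of 1.64 (1.30 to 2.05), while Sparc, a matrix glycoprotein and the most abundant gene of the list, had 0.834 (0.730 to 0.950). Otx2, a factor of the primed state, had 0.492 (0.172 to 1.15), and Fgf5 was listed at 0 in all groups. The list summed to a ratio of 0.950 (0.872 to 1.03), and of its 4 genes with at least 20 CPM 2 were higher and 2 lower. Sox2 was listed at 0 in the mESCs as well, so its value says nothing about these cells.

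Targets of p53 had a ratio below 1 in 9 of 9 cases with at least 20 CPM (background 46.8%), with a summed ratio of 0.829 (0.782 to 0.878). Cdkn1a (ENSMUSG00000023067, chromosome 17, 29309936 to 29319701, plus strand), which encodes the CDK inhibitor p21, was at 70.8 CPM in S-high cells, 89.5 CPM between, and 111 CPM in the lowest 50%, a ratio of 0.640 (0.515 to 0.789). Phlda3, an inhibitor of AKT, had a ratio of 0.517 (0.366 to 0.715), Mdm2, the ligase that degrades p53, 0.801 (0.684 to 0.933), and Bax, a cell death effector, 0.994 (0.888 to 1.11). The intervals of Bax and of Ccng1, an atypical cyclin with a ratio of 0.931 (0.807 to 1.07), contained 1. The immediate early and stress list had a summed ratio of 0.979 (0.913 to 1.05).

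S-high cells, like the cells between, held fewer transcripts than the lowest 50% of the 2-cell-like state, a rare state of cultured stem cells that expresses genes of the 2-cell embryo. The 7 genes of this list in the files summed to 12 UMIs in S-high cells and 466 in the lowest 50%. Their level was 8.25 CPM in S-high cells, 19.8 CPM between, and 81.4 CPM in the lowest 50%, and the ratio of S-high to low cells was 0.101 (0.0520 to 0.179). Zscan4c gave 30.9% of the UMIs of the list in all filtered mESCs, and reads of the Zscan4 genes can be split between near-identical copies. At least 3 of these UMIs were present in 2 of 257 S-high cells (0.778%, exact binomial 95% interval 0.0944% to 2.78%), in 9 of 652 cells between (1.38%, 0.633% to 2.60%), and in 43 of 930 low cells (4.62%, 3.37% to 6.18%). At 2000 UMIs per cell the numbers were 2, 5, and 28, or 0.778%, 0.767%, and 3.01%, so that a low share was not particular to S-high cells. In N2a and NIH/3T3 cells, which should lack these transcripts, 0 cells reached 3 UMIs, which allows shares of up to 0.145% and 0.169%. The median depth of these cells was 6927 and 5426 UMIs.

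The lowest ratios outside the lists belonged to the same cells in part. Among 4443 genes with at least 50 CPM, 26 were at least 1.5-fold higher in S-high cells (0.585%) and 86 at least 1.5-fold lower (1.94%). The 26 include all 14 S score genes, whose counts chose the cells. With cells scored at 2000 UMIs, 14 genes were higher and 30 lower, and these 14 were not separated into S score genes and others. The lowest ratios were those of 5430402O13Rik at 0.0719 (0.0343 to 0.133), Popdc3 at 0.0822, and Ccser1 at 0.114, genes for which 78.6%, 66.5%, and 60.9% of the mESC UMIs came from the 55 cells with at least 3 UMIs of the 2-cell-like list. Without the 55 cells these genes were still lower in S-high cells, with ratios of 0.106 (0.0214 to 0.317) for 5430402O13Rik, 0.217 for Popdc3, and 0.303 for Ccser1. The 2-cell-like list itself still had a ratio of 0.200 (0.0401 to 0.615) without the 55 cells. Their removal thus did not take out all transcripts of that state, and these ratios do not separate the genes from it. The ratio of Neto2 moved from 0.269 to 0.768, that of Robo1, an axon guidance receptor, from 0.349 to 0.620, and that of Gm38825 from 0.276 to 0.501. Dnah8, a dynein heavy chain, had 0.419 with these cells and 0.421 without them, and the ratios of Ddr2, Dnajb14, and Zswim6 without them were 0.569, 0.475, and 0.500. The number of genes at least 1.5-fold lower was 72 without the 55 cells.

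**Figure D4:**
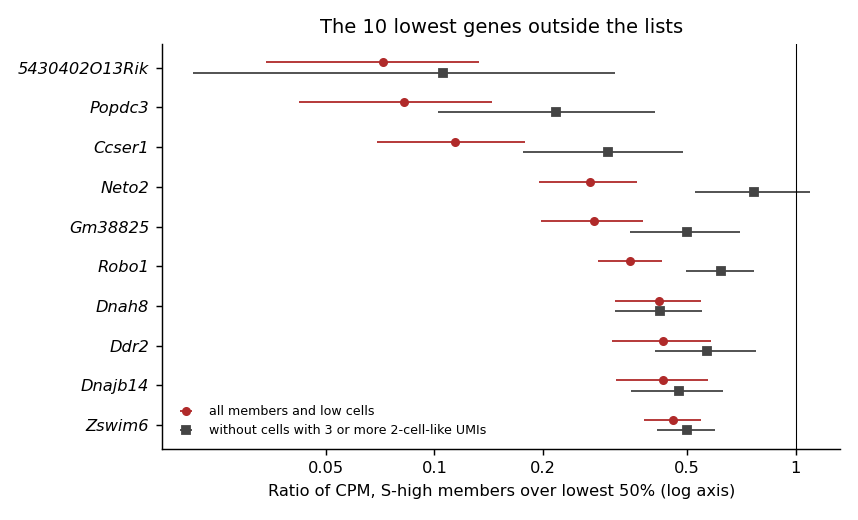
Points are ratios of CPM in S-high cells over the lowest 50% (log axis) for the 10 lowest genes outside the lists, with 95% counting intervals, over all cells (circles) and without the 55 cells with at least 3 UMIs of the 2-cell-like list (squares). The squares lie closer to 1 for each gene other than Dnah8, whose points coincide, and the shift is small for Dnajb14 and Zswim6.

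The highest ratios outside the lists were smaller. Gm28960 had 1.59 (1.29 to 1.94), Scd1, which desaturates fatty acids, 1.56 (1.26 to 1.93), and Ccdc124 1.55 (1.24 to 1.93). Qtrt1, which modifies tRNA, had 1.53, Dnph1, a nucleotide hydrolase, 1.51, and Slx4ip 1.50. Pnkd, Alms1, Syce2, and Fbxw2 lay between 1.48 and 1.50. Alms1, a centrosome gene, also had ratios above 1 in N2a (1.90) and NIH/3T3 (1.26). Of the other 9 genes, Ccdc124, Dnph1, Slx4ip, Pnkd, and Fbxw2 had at least 20 CPM in both lines, and their ratios ran from 0.888 to 1.08 in N2a and from 0.916 to 1.18 in NIH/3T3. The remaining 4 had less than 20 CPM in at least 1 of these lines, and their ratios there are not given.

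Transcripts of the other lines were near 0 in S-high cells. The 8 N2a markers summed to 21 UMIs (14.4 CPM) in S-high cells and 103 UMIs (17.98 CPM) in the lowest 50%, against 4798 CPM in N2a cells, and 52.1% of the marker UMIs of all filtered mESCs were those of Gata3. The N2a marker Clvs1 was at 0 in S-high cells. The 8 NIH/3T3 markers summed to 13 UMIs (8.94 CPM) and 41 UMIs (7.16 CPM), against 2913 CPM in NIH/3T3 cells, with Sema5a the most abundant in all filtered mESCs (28.3%). The matrices of the 3 lines shared 0 barcodes, which splitting by BC1 fixes and which says nothing about mixing of the lines.

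Within the culture, S-high cells were found at all 32 BC1 sequences of the mESCs, with 2 to 17 cells and 4.65% to 25% of the filtered cells at each (median 13.3%). The summed ratio of origin licensing, helicase, and polymerase genes was above 1 at 31 of 32 BC1 sequences and ran from 0.955 to 1.54, with a median of 1.15. That of the other G2/M genes was below 1 at 31 of 32, with a median of 0.780. The rule had removed G2/M-high cells from the S-high side only, which by itself lowers this ratio at each BC1 sequence. The ratio per BC1 sequence was not computed with these cells removed from both sides. BC1 sequences mark portions of 1 culture and are not replicates.

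The same rule was then applied to the other lines, to show how S-high mESCs stood beside S-high cells of N2a (288 of 2070 cells) and NIH/3T3 (257 of 1775 cells). The S score had its highest median and its smallest spread relative to its mean in mESCs. From the 5th to the 95th percentile it ran from 0.191% to 0.617% in mESCs and from 0.0572% to 0.516% in N2a. In NIH/3T3 it ran from 0.0798% to 0.440%, a narrower range than in mESCs. Its median was 0.392% in mESCs, 0.225% in N2a, and 0.244% in NIH/3T3, and its coefficient of variation beyond counting, after thinning to 2000 UMIs, was 0.233, 0.510, and 0.347. The contrast between S-high cells and the lowest 50% in replication genes outside the score was also the smallest in mESCs. The 46 genes of origin licensing, helicase activation, and polymerases summed to a ratio of 1.16 in mESCs (1.13 to 1.18), 1.87 in N2a (1.83 to 1.91), and 1.47 in NIH/3T3 (1.43 to 1.51), and to 1.13, 1.65, and 1.38 when all cells were scored at 2000 UMIs. With 1 culture per line, the line and the culture cannot be told apart, and the difference between lines was not tested.

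Gene by gene, 126 of the 154 replication-related genes had at least 20 CPM in all lines. The ratio was above that of mESCs in N2a for 110 of them and in NIH/3T3 for 101, while the counting interval lay wholly above that of mESCs for 68 in N2a and 33 in NIH/3T3. No share over all genes is given for these counts between lines, so they have no background. The median ratio of the 126 genes was 1.16 in mESCs, 1.69 in N2a, and 1.41 in NIH/3T3. Over all genes with at least 20 CPM in each line, the median was 1.01, 0.976, and 1.00 in the same order. With each line's own limit of 20 CPM, 120 of 134 genes were higher in S-high cells of N2a (background 44.8%), 84 of them at least 1.5-fold (background 4.12%), and in NIH/3T3 124 of 138 were higher (background 50.8%), 57 of them at least 1.5-fold (background 2.34%). Cdc6 had ratios of 1.67 in mESCs, 8.99 in N2a, and 3.14 in NIH/3T3, and Ccne2 had 1.85, 5.89, and 4.05. E2f1 had 1.05, 2.696, and 1.80. Some genes did not follow this order, such as Orc4 with 1.00, 1.02, and 1.09 and Ccnd1 with 1.47, 0.898, and 1.00. Ticrr, which was lower in S-high mESCs, had ratios of 2.10 in N2a and 1.12 in NIH/3T3. On the side of mitosis, Ccnb1 had ratios of 0.683, 0.342, and 0.268, and Plk1, a mitotic kinase, 0.795, 0.195, and 0.242, in mESCs, N2a, and NIH/3T3. The 38 other G2/M genes summed to ratios of 0.800, 0.780, and 0.576 in this order, so that the sums of mESCs and N2a lay close together. In each line the rule removed G2/M-high cells from the S-high side only. With these cells removed from the low cells too, the summed ratio of mESCs was 0.883, and no such value was computed for the other lines.

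**Figure D5:**
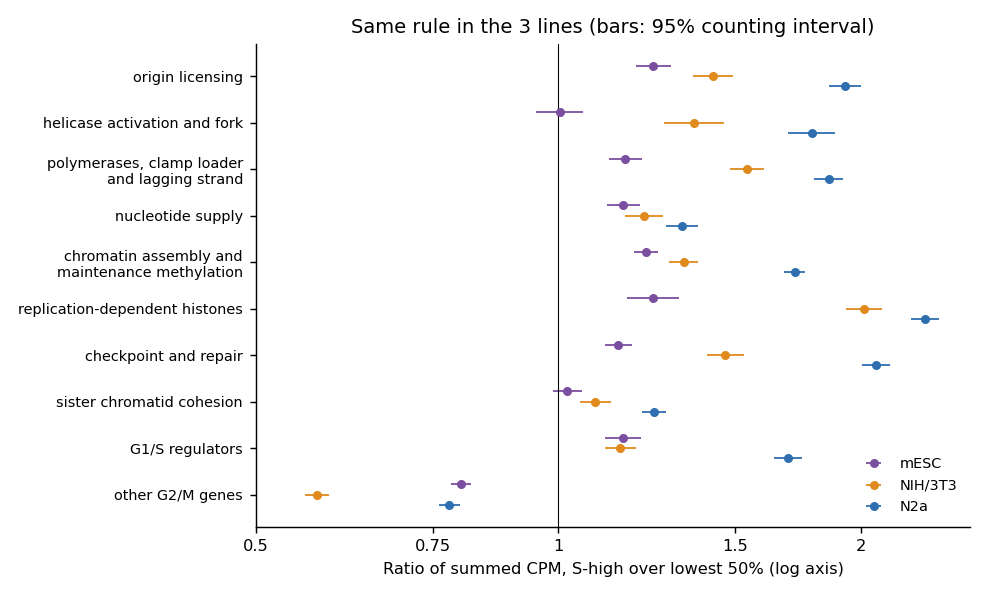
Points are ratios of summed CPM in S-high cells over the lowest 50% (log axis) for the 9 replication-related lists and the other G2/M genes in the 3 lines, with 95% counting intervals. In N2a the ratio exceeds that of mESCs in each of the 9 replication-related lists, and in NIH/3T3 in 8 of them, with G1/S regulators at 1.15 against 1.16.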

How the data were processed

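RNA was measured by CapSeq in 3 mouse cell lines. The authors trimmed the TSO sequence, split the reads by BC1, and ran STARsolo (GRCm39, GENCODE M30). Their deposited matrices hold UMI counts without normalization or a cell filter, and whether intronic reads were counted is not given in the sources used here. The mESC matrix held 13875356 UMIs, N2a 20662884, and NIH/3T3 13505027. The pooled matrix (49185518 UMIs) was made without the split by BC1 and served as an alternative.

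Scores, CPM, ratios, and intervals were computed with Python 3.11.15, numpy 2.4.6, scipy 1.17.1, and pandas 2.3.3, and were tested on simulated data. Poisson and binomial intervals are exact at 95%. A count of 0 was taken to allow 3 counts. Doublets were not called. The S-high cells and the gene lists were chosen with earlier results of these data known. Genes named were taken from the score genes, the opening 4 genes and both extremes of each list (2 of these genes are not reported here), the G2/M and line markers (Ccnb2 and Cdc20 among them), and the 10 highest and 10 lowest genes with at least 50 CPM outside the lists. Other genes named are the most abundant gene of a list, those past 1.5-fold in a list, those with printed promoters, and Sox2, and they were chosen after their values were seen. Symbols given to more than 1 identifier were left out. Positions and promoters were read from the GRCm39 genome with GENCODE M39, in which 32953 of 33565 gene identifiers were present. Alternatives changed the filters, the thresholds, the score, the depth of scoring, and the matrix.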

Additional observations from a re-analysis of the deposited data

Results flagged for a closer look

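Cdkn1a, which encodes p21, had a ratio of S-high cells to the lowest 50% of 0.640 in mESCs (0.515 to 0.789) and of 2.23 in N2a, so that the directions were opposite in these lines, and in NIH/3T3 it was 1.05. Each line was 1 culture, and the difference between lines was not tested.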

How the results depend on the processing

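All summed ratios kept their direction from 1 under each alternative tried for the replication list (1.13 to 1.16) and the other G2/M list. With scores from cells thinned to 2000 UMIs, the replication ratio was 1.13 (1.16 as reported), the G2/M ratio 0.848 (0.800), and 14 genes were at least 1.5-fold higher (26) and 30 lower (86), and in N2a and NIH/3T3 the replication ratios were 1.65 (1.87) and 1.38 (1.47). With the highest 10% the G2/M ratio was 0.778 and 53 genes were higher, and with the highest 20% 57 genes were lower. Without G2/M-high cells among the low cells, the G2/M ratio was 0.883. With the S score taken from the replication list outside the rule, the 14 rule genes had a summed ratio of 1.23 in place of 1.95, the G2/M ratio was 0.838, 51 genes were lower, and 62 of the 248 cells chosen were among the 257 (25% and 24.1%). With genes of at least 20 CPM, 97 were higher and 239 lower, with no filter on low genes 2168 and 2320, and with a 2-fold limit 4 and 15. Those 4 were the S score genes Gins2, Rrm2, Pola1, and Uhrf1, whose counts helped to choose the cells. The counts of higher genes in this section were not separated from the S score genes. The other 57 values, among them those for other UMI and mitochondrial limits, the pooled matrix, mean shares per cell, and removal of the deepest 5% of cells, stayed within the range set for no change (a count within 1.5 times, a ratio within its interval). The removal of cells with 2-cell-like UMIs and the thinned scores of N2a and NIH/3T3 were chosen after the data were seen. No paired analysis was possible because each line had 1 culture without replicates. A median of 29 S score UMIs per S-high cell limits the placement of single cells.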
